A study of Mus musculus with 6 samples.

Results

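The Toll-like receptors (TLRs), their coreceptor CD14 and their adaptor MYD88 were followed as transcripts in cells sorted from mouse mesentery as endothelial cells (ECs). The mice had received 6 weeks of daily intraperitoneal injection of glucose-based peritoneal dialysis (PD) fluid or of saline. The group was defined by name, as the rows of the count table whose symbol was Tlr1, Tlr2, Tlr3, Tlr4, Tlr6, Tlr7, Tlr8, Tlr9, Cd14 or Myd88. It held 10 of the 22183 genes in the table, each with 1 row, and all 10 passed the filter on low counts. All mice were WT males on the C57BL/6J background, aged 8 to 10 weeks, and 3 saline mice and 3 PD mice gave 1 library each. Both groups received an injection every day, so the comparison was between the 2 fluids and held no uninjected mice.

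The sort was described in the labels as magnetic selection for CD31, and in the study's supplement as flow sorting of CD31-positive, CD45-negative cells from digested mesentery. Total counts ran from 21973426 to 26374292 per library. Pecam1, which encodes CD31, was at 469 ± 19.4 CPM (TMM-scaled read counts per library size; mean ± SD, n = 3) in saline and 514 ± 7.85 CPM in PD fluid, while Cdh5, which encodes the EC junction protein VE-cadherin, was at 18.9 ± 2.72 and 33.3 ± 1.03 CPM. Transcripts of Ptprc, which encodes CD45, were at 2373 ± 127 CPM in saline and 1473 ± 63.6 CPM in PD fluid. The 14 endothelial markers summed to between 1292 and 1306 CPM in saline and to between 2118 and 2243 CPM in PD fluid. The 8 B cell markers summed to between 6738 and 7038 CPM in saline and to between 3158 and 3218 CPM in PD fluid. The 10 macrophage and monocyte markers summed to between 2109 and 2226 CPM in saline and to between 8295 and 8909 CPM in PD fluid. None of them was at 0 in any library. All 10 were called higher, beside 31.1% of all genes tested. The part of these cell types in the results below was not tested. In such bulk libraries, fewer cells of a type and less RNA per cell cannot be told apart.

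TLRs are membrane receptors of innate immunity that recognise conserved microbial molecules and some products of damaged tissue. TLR1, TLR2, TLR4 and TLR6 act at the cell surface, where TLR2 pairs with TLR1 or TLR6 to detect bacterial lipopeptides and TLR4 detects lipopolysaccharide, which CD14 hands to it. TLR3, TLR7, TLR8 and TLR9 sit in endosomes and detect nucleic acids. All of these receptors except TLR3 signal through MYD88, which recruits IRAK kinases and leads to NF-kB activation and cytokine transcription, and they are best known from myeloid cells and B cells, although ECs carry some of them, TLR4 above all.

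The DNA just upstream of a RefSeq start of 4 members is shown because these members were called in the comparison, in opposite directions. The stretch shown for Myd88 lies inside the gene as GENCODE M21 places it (chr9:119335934-119341411), so by that annotation it is not upstream of the gene. Promoter windows of 7 of the 10 members (Tlr1, Tlr2, Tlr3, Tlr6, Tlr8, Tlr9 and Myd88) were used, and those of Tlr4, Tlr7 and Cd14 were not used here. Tlr1 and Tlr6 had 2 windows each, and the first is shown for Tlr1. Sequences are from RefSeq on GRCm38.p6, read 5′ to 3′ on the strand of the gene, start 250 bases upstream of the RefSeq start of the gene and stop where the GENCODE M21 annotation places an exon. The capitals mark matches to the NF-kB consensus in Tlr2, to the PU.1 core (GAGGAA, or TTCCTC on the other strand) in Tlr1 and Tlr8, and to the interferon-stimulated response element (ISRE, here GAAA, then 2 bases of any kind, then GAAA) or its reverse complement in Myd88.
Tlr2, chr3:83841768-83841858, minus strand: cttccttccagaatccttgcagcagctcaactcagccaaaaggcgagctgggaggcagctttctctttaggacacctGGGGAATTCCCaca
Tlr8, chrX:167264330-167264579, minus strand: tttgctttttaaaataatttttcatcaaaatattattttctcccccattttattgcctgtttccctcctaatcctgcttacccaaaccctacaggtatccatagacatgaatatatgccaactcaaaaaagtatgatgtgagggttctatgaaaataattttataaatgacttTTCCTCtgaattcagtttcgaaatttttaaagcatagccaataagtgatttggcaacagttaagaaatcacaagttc
Tlr1, chr5:64933564-64933808, minus strand: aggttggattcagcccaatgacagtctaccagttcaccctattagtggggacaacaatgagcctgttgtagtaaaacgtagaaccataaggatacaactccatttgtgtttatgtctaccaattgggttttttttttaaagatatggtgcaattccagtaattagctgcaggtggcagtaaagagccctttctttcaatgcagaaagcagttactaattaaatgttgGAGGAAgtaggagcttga
Myd88, chr9:119340042-119340268, minus strand: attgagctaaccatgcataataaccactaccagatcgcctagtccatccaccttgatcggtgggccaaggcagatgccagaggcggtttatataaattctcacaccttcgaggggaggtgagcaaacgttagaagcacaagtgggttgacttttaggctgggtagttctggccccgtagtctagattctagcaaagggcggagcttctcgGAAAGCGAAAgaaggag

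Both strands of each window of 250 bases were searched for these motifs and for the AP-1 motif TGANTCA. The NF-kB consensus was matched in 7.25% of the 32841 promoter windows of all genes, the ISRE in 2.98%, the PU.1 core in 23.3% and AP-1 in 6.75%. In Tlr2, 3 overlapping NF-kB matches on both strands covered the bases from 173 to 163 upstream of the start, and Tlr3 had 1 such match, 211 to 202 bases upstream. The PU.1 core lay 77 to 72 bases upstream in Tlr8, 23 to 18 bases upstream in 1 of the 2 windows of Tlr1 and 112 to 107 bases upstream in Tlr9, which also held the AP-1 motif at 58 to 52 bases. The ISRE match of Myd88 lay 40 to 31 bases upstream, and 2 overlapping ISRE matches lay in 1 of the 2 windows of Tlr6. That window of Tlr6 and the windows of Tlr3 and Myd88 lay inside their genes as GENCODE M21 places them. A PU.1 core thus stood in the windows of a member called higher (Tlr8), of a member called lower (Tlr1, in 1 of its 2 windows) and of a member that did not pass the test (Tlr9). These matches are letters in a window and were not measured as binding sites.

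Of the 10 members, 5 were called higher in PD fluid (Cd14, Tlr2, Tlr8, Tlr4 and Myd88) and 1 lower (Tlr1) at an adjusted p under 0.05 (edgeR quasi-likelihood test, p-values adjusted over all 14005 genes tested by the Benjamini-Hochberg method). Over all genes tested, 58.9% were called, 31.1% higher and 27.8% lower, so 6 of 10 was close to the background. The CPM values of the groups did not overlap for the same 6 members, against 65.6% of all genes tested. Calls at a change of at least 2-fold were met by 3 members, all higher (Cd14, Tlr2 and Tlr8), while 15.4% of all genes tested were higher by that rule. The median log2 fold change of the members was 0.25, beside 0.02 over all genes tested. The split of the calls moved with the scaling of the libraries, from 5 higher and 1 lower to 3 and 6 when they were scaled to endothelial markers, to 2 and 7 when scaled to macrophage and monocyte markers, and to 10 and 0 when scaled to B cell markers. Such scaling moves all genes by a like amount, so whether a member keeps its sign follows from its change under TMM.

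**Figure D1:**
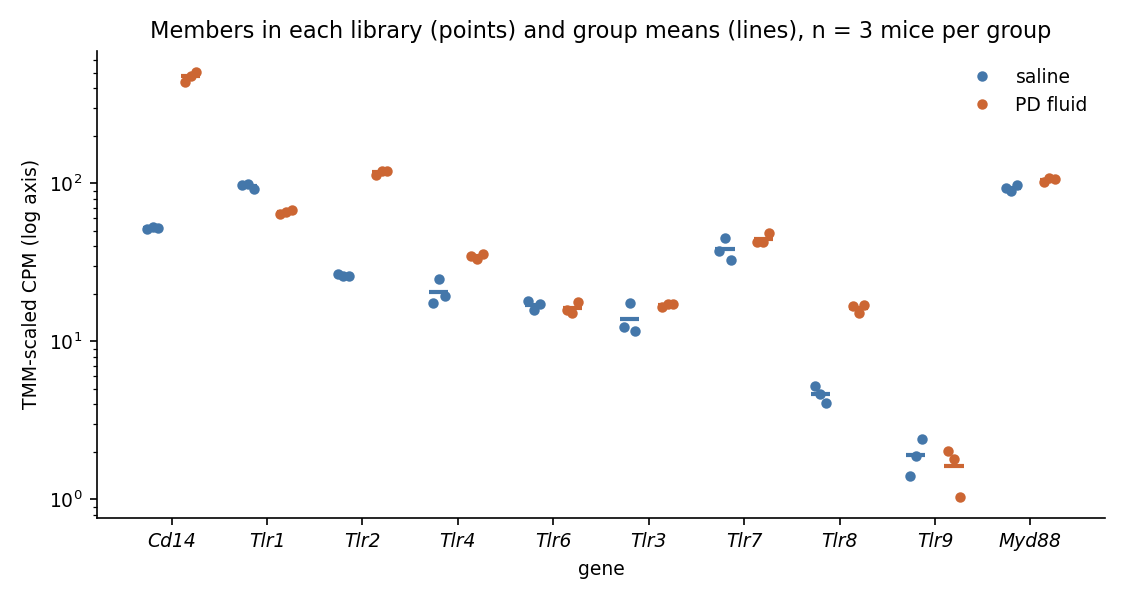
CPM of each member on a log axis in the 3 saline libraries and the 3 PD fluid libraries, with points for libraries and short lines for group means, ordered as coreceptor, cell surface receptors, endosomal receptors and adaptor. The groups are apart for Cd14, Tlr1, Tlr2, Tlr4, Tlr8 and Myd88, with only Tlr1 lower in PD fluid, and they overlap for Tlr3, Tlr6, Tlr7 and Tlr9.

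Among the cell surface receptors, Tlr2 rose most. Tlr2 (ENSMUSG00000027995, chr3:83836272-83841767, minus strand; positions of genes are those of GENCODE M21 on GRCm38) was at 26.8, 25.9 and 25.9 CPM in the saline libraries and at 113, 121 and 120 CPM in the PD fluid libraries. Every PD fluid library was thus above every saline library, with little spread within either group. The mean went from 26.2 ± 0.505 to 118 ± 4.22 CPM, 4.50-fold higher (log2 fold change 2.17, SE 0.071, edgeR adjusted p = 1.46e-09), and it stayed higher under each scaling tried, down to a log2 fold change of 0.33 with macrophage and monocyte marker scaling.

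Tlr1, which encodes a partner of TLR2 in the recognition of triacylated lipopeptides, moved the other way. It was at 96.9, 99.4 and 92.3 CPM in saline and at 64.0, 65.5 and 67.4 CPM in PD fluid, so that every PD fluid library was below every saline library. The mean fell from 96.2 ± 3.58 to 65.7 ± 1.71 CPM, 1.47-fold lower (log2 fold change -0.55, SE 0.067, edgeR adjusted p = 4.66e-05), a direction that turned to 0.55 with B cell marker scaling, and it was the only member called lower. Tlr6, which encodes the other partner of TLR2 and lies 18.467 kb from Tlr1 on chromosome 5, was at 17.9, 15.9 and 17.4 CPM in saline and at 15.8, 15.2 and 17.8 CPM in PD fluid. The groups overlapped and the log2 fold change of Tlr6 was -0.07 (95% interval -0.31 to 0.18, edgeR adjusted p = 0.622), with 1.03 under B cell marker scaling. The pair is similar in sequence. Of the distinct stretches of 50 bases in the coding transcripts of Tlr1, 454 of 3071 (14.8%) also occurred in Tlr6, so reads could be split between them in the authors' counting and both values carry that uncertainty.

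Tlr4, the lipopolysaccharide receptor (ENSMUSG00000039005, chr4:66827584-66930284, plus strand), was at 17.5, 24.9 and 19.5 CPM in saline and at 34.7, 33.4 and 35.6 CPM in PD fluid. All PD fluid libraries were above all saline libraries, and saline replicate 2 was the highest of its group. The mean went from 20.6 ± 3.85 to 34.6 ± 1.12 CPM, 1.68-fold higher (log2 fold change 0.75, SE 0.124, edgeR adjusted p = 0.000447), but the sign turned to -0.25 with endothelial marker scaling and to -1.10 with macrophage and monocyte marker scaling.

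Of the 4 endosomal receptors, Tlr8 alone passed the test. TLR8 is a receptor for RNA degradation products, and its gene (ENSMUSG00000040522, chrX:167242696-167264329, minus strand) was at 5.19, 4.66 and 4.06 CPM in saline and at 16.7, 15.0 and 17.1 CPM in PD fluid. Each PD fluid library thus held more Tlr8 than any saline library. The mean rose from 4.64 ± 0.568 to 16.3 ± 1.08 CPM, 3.51-fold (log2 fold change 1.81, SE 0.141, edgeR adjusted p = 1.49e-06), and was near no change at -0.029 (edgeR adjusted p = 0.860) with macrophage and monocyte marker scaling.

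Tlr7, the neighbour of Tlr8 at a distance of 40.599 kb on the X chromosome and a receptor for single-stranded RNA, was at 37.5, 45.1 and 32.9 CPM in saline and at 42.5, 42.6 and 48.5 CPM in PD fluid. Saline replicate 2 lay inside the PD fluid range, and the log2 fold change of Tlr7 was 0.21 (95% interval -0.04 to 0.46, edgeR adjusted p = 0.136). Tlr3, the receptor for double-stranded RNA that signals through TICAM1 rather than MYD88, was at 12.4, 17.5 and 11.7 CPM in saline and at 16.5, 17.4 and 17.2 CPM in PD fluid, with a log2 fold change of 0.30 (95% interval -0.04 to 0.63, edgeR adjusted p = 0.112). For Tlr3 as well, the overlap came from saline replicate 2, which was above all 3 PD fluid libraries. Without saline replicate 2, both passed the test, Tlr3 at a log2 fold change of 0.50 (edgeR adjusted p = 0.00413) and Tlr7 at 0.34 (edgeR adjusted p = 0.0102). Neither passed with any other single library left out. Without saline replicate 3 they were at 0.18 (edgeR adjusted p = 0.333) and 0.10 (edgeR adjusted p = 0.439). Endothelial marker scaling turned Tlr3 and Tlr7 to -0.70 and -0.79, and macrophage and monocyte marker scaling to -1.55 and -1.63. The antisense gene Gm45542 overlaps 698 bases of Tlr3, and whether counting used the strand is not given in the sources used here.

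Tlr9, the receptor for unmethylated CpG DNA and the lowest member, was at 1.41, 1.89 and 2.40 CPM in saline and at 2.02, 1.80 and 1.04 CPM in PD fluid. The groups overlapped, and with 23 to 58 counts per library the log2 fold change of -0.21 had a wide 95% interval, from -0.94 to 0.51 (edgeR adjusted p = 0.594). Tlr9 did not pass the test under TMM scaling, where changes inside that interval could not be told from none, but it passed at -1.21 with endothelial marker scaling, at -2.05 with macrophage and monocyte marker scaling and, with the sign turned, at 0.87 with B cell marker scaling.

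**Figure D2:**
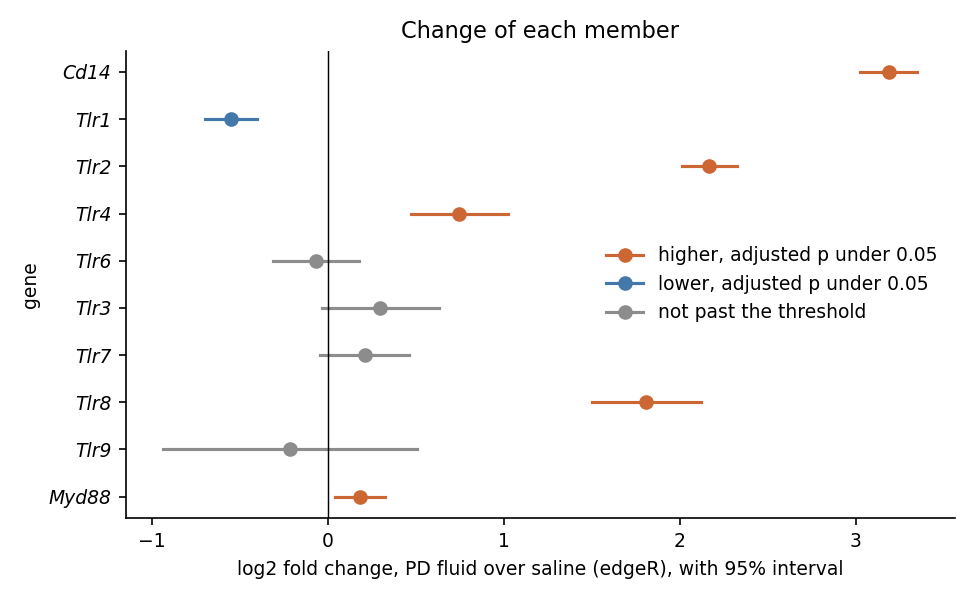
Log2 fold change of each member, PD fluid over saline, with the 95% interval of the edgeR fit under TMM scaling (n = 3 mice per group). Cd14 at 3.19, Tlr2 at 2.17 and Tlr8 at 1.81 are farthest to the right and Tlr1 at -0.55 is the only interval wholly below 0. The signs of Tlr1, Tlr3, Tlr4, Tlr6, Tlr7, Tlr8, Tlr9 and Myd88 turned under at least 1 scaling to cell type markers. Each such scaling shifts all genes by a like amount.

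Cd14 encodes the lipopolysaccharide-binding coreceptor of TLR4 and TLR2, and had the largest change of the 10 members. It (ENSMUSG00000051439, chr18:36725067-36726798, minus strand) was at 51.1, 53.1 and 52.0 CPM in saline and at 437, 480 and 506 CPM in PD fluid. The saline values lay within a few CPM of each other and every PD fluid library was far above them. The mean rose from 52.1 ± 1.01 to 475 ± 34.9 CPM, 9.11-fold (log2 fold change 3.19, SE 0.073, edgeR adjusted p = 5.42e-11), and Cd14 remained higher under each scaling, with a log2 fold change of 2.20 with endothelial markers and 1.35 with macrophage and monocyte markers.

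Myd88 encodes the adaptor shared by all of these receptors except TLR3, and it changed least among the called members. It was at 92.9, 89.9 and 97.1 CPM in saline and at 103, 108 and 106 CPM in PD fluid. The groups did not overlap but lay close together. The mean went from 93.3 ± 3.58 to 106 ± 2.90 CPM, 1.13-fold higher (log2 fold change 0.18, SE 0.065, edgeR adjusted p = 0.0326), and the sign turned to -0.81 with endothelial marker scaling and to -1.66 with macrophage and monocyte marker scaling. The call was lost with DESeq2 (adjusted p = 0.0653) and without saline replicate 1 (edgeR adjusted p = 0.0889), saline replicate 2 (0.0689), PD fluid replicate 2 (0.112) or PD fluid replicate 3 (0.0587). Myd88 (ENSMUSG00000032508, chr9:119335934-119341411, minus strand) shares 1736 bases with Acaa1a on the opposite strand, and 9.82% of its stretches of 50 bases occurred in Acaa1a transcripts, so without knowledge of strand the 2 genes cannot be fully told apart. Slc22a14, a protein-coding gene on the same strand as Myd88, spans all 5478 bases of it, and none of the shared stretches of 50 bases came from its transcripts. Acaa1a, a peroxisomal enzyme of fatty acid oxidation, itself went from 64.3 ± 0.716 to 72.7 ± 3.64 CPM (log2 fold change 0.18, edgeR adjusted p = 0.0457).

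Levels of different genes were compared on the deposited FPKM scale, which divides by transcript length. In saline, Myd88 was highest at 47.6 ± 2.21 FPKM, followed by Tlr1 at 33.0 ± 1.00 and Cd14 at 31.6 ± 0.446 FPKM, whose ranges overlapped. Tlr7 stood at 12.4 ± 2.16 FPKM and Tlr2 at 8.65 ± 0.198 FPKM. Below them, Tlr6 at 6.05 ± 0.296 FPKM overlapped with Tlr4 at 5.03 ± 0.900 FPKM, and Tlr4 with Tlr3 at 3.90 ± 1.02 FPKM, while Tlr8 at 1.56 ± 0.408 and Tlr9 at 0.544 ± 0.145 FPKM were apart from their neighbours.

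In PD fluid, the order began with Cd14 at 290 ± 13.7 FPKM, Myd88 at 54.2 ± 1.14 FPKM and Tlr2 at 39.2 ± 0.828 FPKM, followed by Tlr1 at 22.4 ± 0.235, Tlr7 at 13.0 ± 0.939 and Tlr4 at 8.53 ± 0.272 FPKM, with no overlap between neighbours. Tlr8 at 6.07 ± 0.748, Tlr6 at 5.83 ± 0.511 and Tlr3 at 4.96 ± 0.583 FPKM overlapped in turn, and Tlr9 was again lowest at 0.471 ± 0.159 FPKM. Tlr2 thus moved from below Tlr1 and Tlr7 to the top of the 8 receptors. Of the summed FPKM of the 8 receptors, which was 71.2 ± 4.72 in saline and 100.4 ± 0.788 in PD fluid, Tlr1 made up 46.5 ± 1.72% in saline and 22.3 ± 0.248% in PD fluid. The share of Tlr2 was 12.2 ± 0.928% in saline and 39.0 ± 1.12% in PD fluid.

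**Figure D3:**
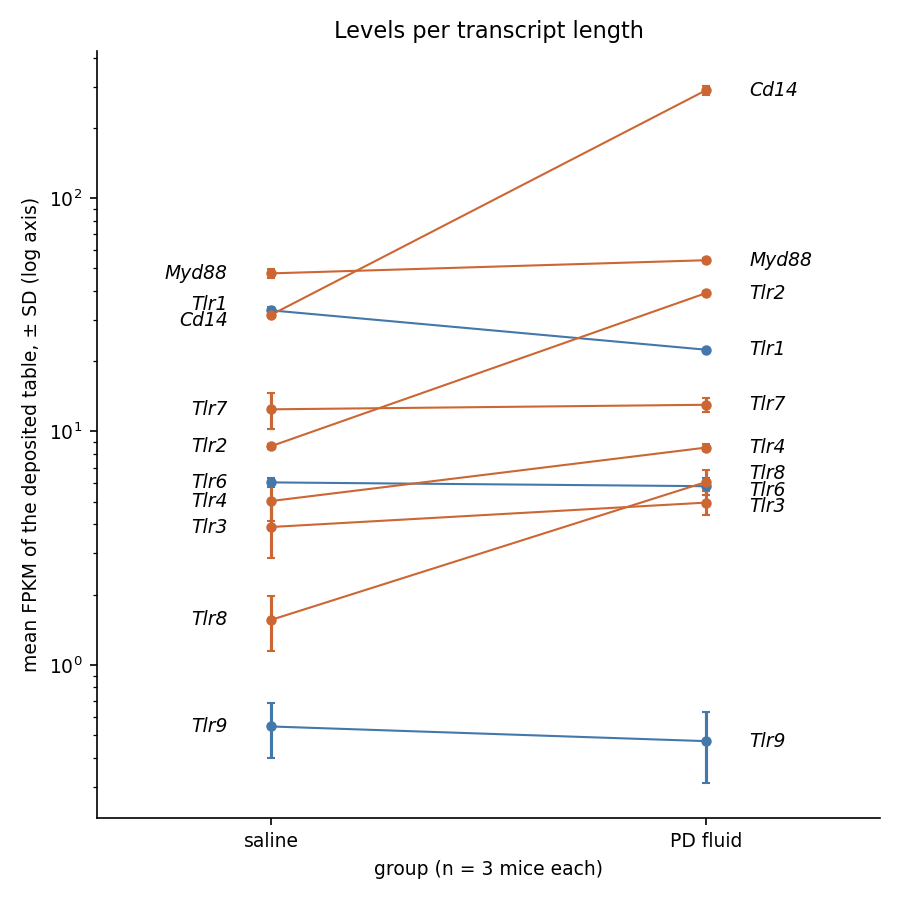
Mean FPKM of each member in saline and PD fluid (n = 3 mice per group) on a log axis, with SD bars, joined by lines that are orange where the mean is higher in PD fluid and blue where it is lower. Cd14 goes from 31.6 to 290 FPKM and Tlr2 from 8.65 to 39.2 FPKM, crossing Tlr7 and Tlr1.

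Ratios between members within a library do not depend on how the libraries are scaled, and 8 pairs were compared by a two-sided exact permutation test over libraries, which cannot give a p below 0.1 with 3 mice in each group. The log2 ratio of Tlr2 to Tlr6 counts was 0.58, 0.70 and 0.58 in saline and 2.84, 2.98 and 2.75 in PD fluid, a difference of 2.24. The ratio of Tlr1 to Tlr6 counts went the other way, from 2.44, 2.65 and 2.41 to 2.02, 2.10 and 1.92, a difference of -0.48. Both differences left the groups apart (exact permutation p = 0.1, adjusted over the pairs 0.133).

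The same held for Cd14 to Tlr4, with a log2 difference of 2.43, for Tlr8 to Tlr7, with 1.59, for Tlr2 to Tlr4, with 1.41, and for Tlr4 to Myd88, with 0.58, each at an exact permutation p of 0.1 (adjusted 0.133). For Tlr9 to Tlr7 the difference was -0.46 (exact permutation p = 0.6) and for Tlr3 to Tlr7 it was 0.10 (p = 0.5), with groups that overlapped. In every PD fluid library the ratio of Cd14 to Tlr4 and that of Tlr8 to Tlr7 were thus above their values in all saline libraries. These differences follow from the changes of the single members given above and are not separate evidence. The groups did not overlap for 65.6% of single genes tested, and the share over all pairs of genes was not computed.

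A list of 74 other genes of the TLR pathway, arranged by role, was read from the same fit. Of the 73 that passed the filter on low counts, 36 (49.3%) were called higher, 18 (24.7%) lower and 19 did not pass the test, beside the 31.1% and 27.8% of all genes given above. The median log2 fold change over the list was 0.35. Scaling moved the split to 15 higher and 45 lower with endothelial markers, to 8 and 58 with macrophage and monocyte markers, and to 72 and 0 with B cell markers, so the directions that follow are those relative to the bulk of the genes.

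The other receptors comprised Tlr13, a mouse receptor for bacterial ribosomal RNA, which rose from 14.7 ± 0.800 to 55.7 ± 3.55 CPM (log2 fold change 1.92, edgeR adjusted p = 2.73e-08), and the flagellin receptor Tlr5, which rose from 1.98 ± 0.661 to 6.12 ± 1.51 CPM (1.63, adjusted p = 0.000536). The receptors for profilin, Tlr11 and Tlr12, had log2 fold changes of 0.14 and 0.35 and did not pass. Of the 9 genes for ligand handling and receptor trafficking, 4 rose and 3 fell. Lbp, which encodes the lipopolysaccharide-binding protein that loads CD14, rose by 1.84 on the log2 scale, from 3.87 ± 0.830 to 13.9 ± 1.69 CPM. Ly96, which encodes MD-2, the lipopolysaccharide-binding partner of TLR4, rose from 8.21 ± 1.33 to 13.9 ± 0.651 CPM (log2 fold change 0.76, edgeR adjusted p = 0.00105). In contrast, Cd180, a TLR4-related receptor of B cells, fell from 37.1 ± 4.56 to 18.0 ± 1.51 CPM (log2 fold change -1.04, edgeR adjusted p = 2.01e-05), and Hmgb1, a nuclear protein that can act as a TLR ligand once released, fell by 0.52 on the log2 scale (adjusted p = 0.000214). The chaperones of receptor trafficking Unc93b1 and Cnpy3, at 0.08 and 0.11, did not pass.

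Among the 5 other adaptors, Ticam2, the TRAM adaptor that links TLR4 to TICAM1, rose from 10.5 ± 0.278 to 20.4 ± 2.10 CPM (log2 fold change 0.97, edgeR adjusted p = 4.52e-05). Tirap, which bridges TLR2 and TLR4 to MYD88, fell from 19.4 ± 0.494 to 15.9 ± 0.380 CPM (log2 fold change -0.29, adjusted p = 0.0256), and Pik3ap1, the PI3-kinase adaptor BCAP, fell as well (-0.20, adjusted p = 0.0181). Ticam1, the TRIF adaptor of TLR3, was at 0.55 (adjusted p = 0.0518) and Sarm1 at 0.18 (adjusted p = 0.733), and neither passed. The kinases, ubiquitin ligases and their partner subunits were the role with the most lower calls, 7 of 14 beside 1 higher. Ikbkg, the NEMO subunit of the IkB kinase complex, had a log2 fold change of -0.61, Tab1, a partner of the kinase TAK1, of -0.61 and Chuk, the IkB kinase alpha subunit, of -0.46. Irak2, a kinase recruited to the MYD88 complex, was the gene that rose, from 64.4 ± 2.97 to 88.6 ± 5.96 CPM (log2 fold change 0.46, adjusted p = 0.000394).

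Of the 11 transcription factors, 6 rose and 3 fell. The AP-1 subunits Jun and Fos had log2 fold changes of 0.91 and 0.90, with Fos going from 1493 ± 45.0 to 2784 ± 107 CPM, and the NF-kB subunit gene Nfkb2 of 0.68. Rel, which encodes the NF-kB subunit c-Rel, fell from 89.4 ± 2.56 to 56.3 ± 3.00 CPM (log2 fold change -0.67, edgeR adjusted p = 1.74e-05), and Nfkb1 and Irf5 did not pass, at 0.06 and 0.02. Of the 11 inhibitors, 5 rose and 2 fell, led by Tnfaip3, the ubiquitin-editing enzyme A20, which rose from 188 ± 6.14 to 417 ± 10.7 CPM (log2 fold change 1.15, adjusted p = 4.60e-08). Socs1, a suppressor of cytokine signalling, rose by 1.08 on the log2 scale, the phosphatase gene Dusp1 by 1.07 and the IL-33 receptor gene Il1rl1 by 1.04, while Tollip, Irak3, Otud4 and Tnip1 did not pass, at 0.13, 0.17, -0.19 and 0.26.

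The cytokines, chemokines and enzymes induced downstream formed the role with the largest changes, with 14 of the 15 tested called higher, none lower and a median log2 fold change of 2.41. The neutrophil chemokine gene Cxcl2 rose from 12.9 ± 1.92 to 138 ± 9.06 CPM (log2 fold change 3.43, edgeR adjusted p = 1.13e-09) and Il6, which encodes an acute-phase cytokine, from 2.81 ± 0.616 to 22.6 ± 1.67 CPM (3.01, adjusted p = 8.67e-08). Ccl3, a chemokine gene of myeloid cells, rose by 2.97 and Il1a, which encodes an alarmin cytokine, by 2.94. Il12b, at 2.34 ± 0.345 and 2.33 ± 0.300 CPM, did not pass. Ifnb1, the interferon-beta gene, was too low to test, with 0 to 4 counts per saline library and 4 to 14 per PD fluid library. The IL-1 family receptors share MYD88 with the TLRs, and 3 of 4 rose. Il1r1, the IL-1 receptor, rose from 10.6 ± 0.918 to 23.0 ± 0.655 CPM (log2 fold change 1.12, adjusted p = 9.27e-06), Il18rap by 0.61 and Il18r1 by 0.48, while the accessory chain gene Il1rap fell (-0.26, adjusted p = 0.0313).

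**Figure D4:**
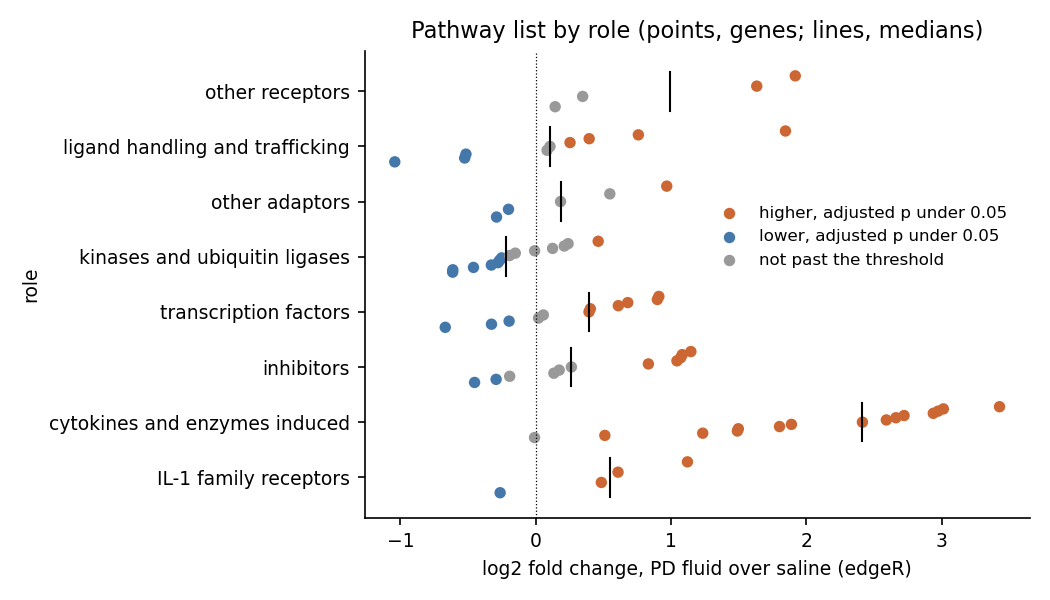
Log2 fold change, PD fluid over saline, of the 73 pathway genes tested under TMM scaling, 1 point per gene, in 8 rows by role with a line at each role's median. Induced cytokines and enzymes lie farthest to the right with a median of 2.41, kinases and ubiquitin ligases have a median of -0.22; 45 of the genes were called lower with endothelial marker scaling and 58 with macrophage and monocyte marker scaling.

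Cell type markers were read in 11 lists, compared as the mean log2(CPM + 1) of each list by a two-sided exact permutation test. Relative to saline, PD fluid libraries were higher for endothelial markers (difference 0.96, 13 of 14 called higher), macrophage and monocyte markers (1.79, 10 of 10), dendritic cell markers (0.47, 5 of 7), mast cell markers (0.58, 5 of 6), mesothelial markers (2.87, 6 of 6), fibroblast markers (2.85, 7 of 7) and mural cell markers (1.09, 6 of 6). Neutrophil markers were higher by 3.06, with 5 of the 6 tested called higher. The other, Cxcr2, did not pass (log2 fold change 0.05, edgeR adjusted p = 0.874). Ly6g, the marker of mature neutrophils, was too low to test, with 0, 0 and 3 counts in saline and 14, 10 and 4 in PD fluid. Pancreatic acinar markers differed by 9.02, from a sum of between 2.11 and 5.35 CPM to between 5876 and 6743 CPM. B cell markers were lower by a difference of -1.09, with 8 of 8 called lower. Their sum went from between 6738 and 7038 CPM to between 3158 and 3218 CPM. T and NK cell markers overlapped between the groups as a list (-0.03, exact permutation p = 0.6), but its genes moved in both directions. Of the 8, Ncr1 (0.32) and Klrb1c (0.37) were called higher, Cd3d (-0.32), Cd3g (-0.33) and Trac (-0.40) lower, and 3 did not pass. For the other 10 lists the groups did not overlap, at p = 0.1, the smallest the exact permutation test can give, and 0.11 after adjustment over the lists. Over all genes tested, 31.1% were called higher and 27.8% lower, and the groups did not overlap for 65.6% of single genes.

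Scaling the libraries to a marker list moved all genes by a like amount, since the median log2 fold change over all genes tested went from 0.02 to -0.98 with endothelial markers, to -1.82 with macrophage and monocyte markers and to 1.11 with B cell markers. Relative to that median, each member stayed within 0.0089 log2 units of its value under TMM scaling. In the TMM fit, the log2 fold changes of the 10 macrophage and monocyte markers ran from 0.95 to 2.69, with Lyz2, a lysozyme gene and the most abundant of them, at 2.03. Tlr2 (2.17) and Tlr8 (1.81) were within that range, Cd14 (3.19) was above it, and the other 7 members were below it. The range of the fibroblast markers, 1.94 to 3.91, held Tlr2 and Cd14. That of the mural cell markers, 0.26 to 1.95, held Tlr3, Tlr4 and Tlr8. That of the endothelial markers, 0.13 to 1.65, held Tlr3, Tlr4, Tlr7 and Myd88. That of the mesothelial markers, 3.06 to 3.92, held Cd14. The range of the neutrophil markers, 0.05 to 8.40, was wide and held Cd14, Tlr2, Tlr8, Tlr3, Tlr4, Tlr7 and Myd88. The dendritic cell range, -0.11 to 0.89, held Tlr3, Tlr4, Tlr6, Tlr7 and Myd88. The T and NK cell range, -0.40 to 0.37, held Tlr3, Tlr6, Tlr7, Tlr9 and Myd88. Mast cell markers, 0.31 to 0.83, held Tlr4, and acinar markers, 7.55 to 12.4, held no member. Cd14, Tlr2 and Tlr8 were thus each within the ranges of several lists. Tlr1 (-0.55) lay between 0 and the B cell markers, which ran from -1.27 to -0.80. Whether any of these cell types carried the changes in the members was not tested.

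**Figure D5:**
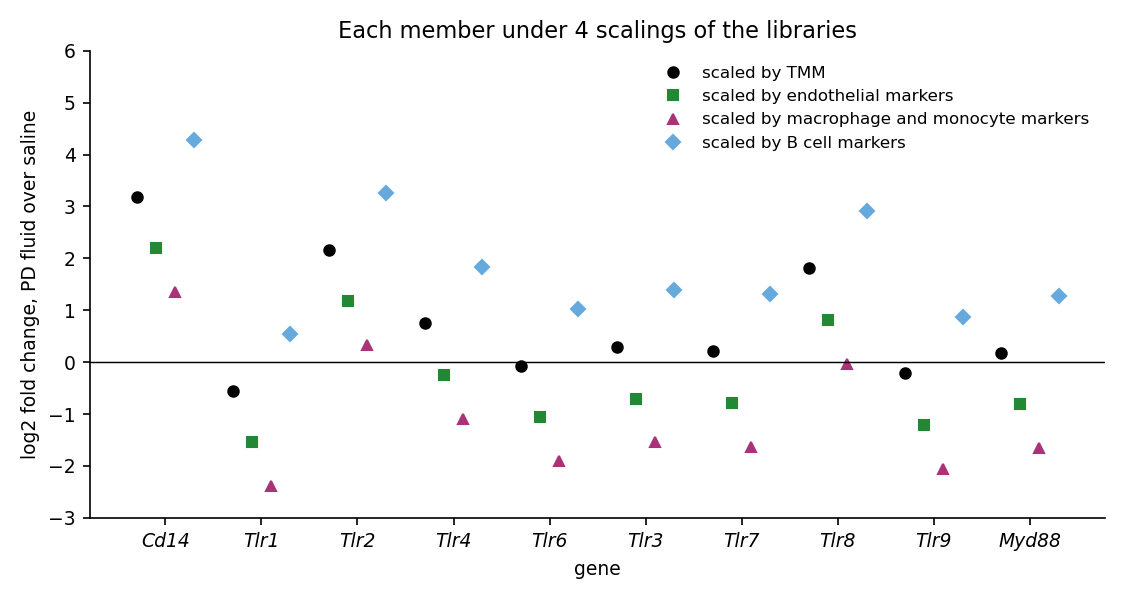
Log2 fold change of each member, PD fluid over saline, with the libraries scaled by TMM, to endothelial markers, to macrophage and monocyte markers or to B cell markers. Cd14 and Tlr2 are above 0 under all 4 scalings, whereas the other members change sign under at least 1 of them, Tlr8 only to -0.029. Scaling to markers shifts all genes by a like amount.

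Genes with a pattern most like that of Myd88 were sought among 11019 genes with a mean of at least 100 counts, by Pearson correlation of log2(CPM + 1) over the 6 libraries. The closest were Itga6 (r = 0.995), Nectin3 (0.994), Ahcyl2 (0.993), Golm1 (0.993) and Map1b (0.992). With only 6 libraries in 2 groups, such values describe a shared difference between the groups and a shared order within them. They are the highest of 11019 values, and whether they exceed what such picking gives was not tested.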

How the data were processed

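The authors deposited, for each mouse, a raw read count per gene and an FPKM value; group means, a log2 ratio, p-values and FDR of the authors' own comparison stood in the same table and were not used. Submitters' processing notes list fastp 0.18.0, Bowtie2 2.2.8, HISAT2, StringTie 1.3.1 and RSEM; genome build, annotation and strand setting are not given in the sources used here. Libraries were poly(A)-selected and sequenced on Illumina NovaSeq. All 6 libraries were grouped by the labelled treatment, with 0 unmatched sample columns.

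Counts of 22183 genes (4492 at 0 in every library) were filtered with filterByExpr, scaled by TMM and tested with edgeR 4.0.16 (quasi-likelihood, no covariate, Benjamini-Hochberg over 14005 genes, threshold 0.05) in R 4.3.3; the study's methods name limma, which was an alternative (3.58.1, voom), as was DESeq2 1.42.0. Other alternatives were library totals, no filter, scaling to endothelial markers, a replicate block, at least 2-fold, each library left out in turn, FPKM in place of counts, a pseudocount of 0.1 in place of 1 CPM for marker levels and, chosen after seeing the data, scaling to macrophage and monocyte or B cell markers. Log2 ratios within libraries used a pseudocount of 0.5 counts. The fit was tested on simulated data in which far fewer genes changed than were called here. At a log2 fold change of 0.5 it recovered 26 of 48 changed genes, at 1 it recovered 64 of 71, and at 2 it recovered 70 of 70. The simulation cannot show how the fit behaves where 58.9% of genes are called. Means are given ± SD over mice. The edgeR p-values set the group difference against the spread between the 3 mice of each group, estimated with information shared over all genes. Gene identifiers were matched to GENCODE M21 (22128 of 22183), and stretches shared between genes were counted as words of 50 bases of its transcripts.

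Members and lists were chosen with earlier results of these data known. Named were all members, Ptprc and Pecam1, per pathway role up to 4 called genes with the largest absolute change (mean of at least 10 counts) and those not called or of small roles (5 or fewer), and the 5 genes most correlated with Myd88; of the marker lists, up to 3 genes with the highest mean count. Cdh5, Ly6g, Cxcr2, Ncr1, Klrb1c and Acaa1a were named after their values were seen.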

Additional observations from a re-analysis of the deposited data

How the results depend on the processing

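Cd14 and Tlr2 kept their direction and side of the threshold under all alternatives run, and so did Tlr8 apart from the scaling to macrophage and monocyte markers. Neither Tlr1 nor Tlr4 met the rule of at least 2-fold. Otherwise Tlr1 kept both apart from the scaling to B cell markers. Tlr4 kept both apart from the scalings to endothelial and to macrophage and monocyte markers. Signs turned for Tlr1 (0.55), Tlr6 (1.03) and Tlr9 (0.87) with B cell markers; for Tlr3 (-0.70), Tlr4 (-0.25), Tlr7 (-0.79) and Myd88 (-0.81) with endothelial markers; and for Tlr3 (-1.55), Tlr4 (-1.10), Tlr7 (-1.63), Tlr8 (-0.029) and Myd88 (-1.66) with macrophage and monocyte markers, each by construction following the shift of all genes. With B cell markers, 13199 of all genes were called (13159 higher, 40 lower), 10 members (10 and 0), and 72 pathway genes higher and 0 lower. Endothelial markers gave 1137 genes higher and 10166 lower, 3 and 6 members, and 15 and 45 pathway genes; macrophage and monocyte markers gave 12704 genes (379 and 12325), 2 and 7 members, and 8 and 58 pathway genes. Requiring at least 2-fold left 2410 genes (2158 and 252), 3 members (3 and 0) and 22 pathway genes (21 and 1). On FPKM, the log2 ratio of Tlr8 to Tlr7 differed by 1.91 and that of Tlr3 to Tlr7 by 0.29; the cause was not tested. With a pseudocount of 0.1 CPM, marker differences were 1.84 for macrophages and monocytes, 3.75 for neutrophils, 3.54 for mesothelial cells, 3.05 for fibroblasts, 1.29 for mural cells and 10.8 for acinar cells, since low genes weigh more.

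Leaving out 1 library at a time gave 6996 to 8018 genes called and 5 to 7 members. Log2 fold changes then ran from 3.14 to 3.24 for Cd14, 2.16 to 2.20 for Tlr2, 1.72 to 1.91 for Tlr8 and 0.65 to 0.90 for Tlr4. They ran from 0.15 to 0.21 for Myd88, 0.18 to 0.50 for Tlr3 and 0.10 to 0.34 for Tlr7. For Tlr1 they ran from -0.58 to -0.53, for Tlr6 from -0.13 to -0.01 and for Tlr9 from -0.41 to 0.02. With a replicate block, 7909 genes were called and Myd88 was not (edgeR adjusted p = 0.0579). Same-numbered mice did not deviate together (r = 0.19, 0.067 and -0.27) and not every library correlated best with its own number, so the samples share only a number and the block was not used. Of the members, Tlr9 had the lowest counts and the widest interval.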
